A study of Mus musculus with 9 samples.

Results

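Oxidative phosphorylation subunit genes were described in mouse lung tissue profiled on 9 expression arrays. The members are all probes whose gene symbol in the platform's annotation starts with Nduf, Uqcr or Atp5, is Sdha to Sdhd, or is Cox followed by a digit from 4 to 8. Of 10012 probes in the table, 55 met this rule, each for a different gene, against 8841 genes named in all: 23 for complex I, 3 for complex II, 2 for complex III, 15 for complex IV and 12 for complex V. The complex I probes include 3 assembly factors (Ndufaf2, Ndufaf3 and Ndufaf7), which are not subunits. A filter on low values, explained below, left 51 members: 21 of complex I, 2 of complex II, 2 of complex III, 15 of complex IV and 11 of complex V.

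The study is about lung damage caused by mechanical ventilation. The overventilation group (3 arrays) had mechanical ventilation, with a pressure of 25 cmH2O, over 3 h. The LPS group (3 arrays) received E. coli LPS (lipopolysaccharide, the endotoxin of Gram-negative bacteria) by injection, 3 mg/kg. The control group (3 arrays) is described by that word alone. The labels do not state strain, age, how the controls were handled, the time from injection to sampling, or whether each sample was a separate animal. The p-values therefore measure only how these arrays vary, and part of that variation may be technical.

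Oxidative phosphorylation is carried out by 5 protein complexes of the inner mitochondrial membrane. Complexes I (NADH dehydrogenase) and II (succinate dehydrogenase) pass electrons through ubiquinone to complex III (cytochrome bc1) and on to complex IV (cytochrome c oxidase), and complex V (ATP synthase) uses the resulting proton gradient to make ATP. The genes named here are nuclear. In the lung, alveolar type II cells, which make surfactant, are known for many mitochondria. In whole tissue, fewer cells of a type and less RNA per cell cannot be told apart.

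Values are ratios to the mean of the 3 control arrays and are given on the log2 scale, so the control mean is 0 for every gene and levels of different genes cannot be compared. Each array has a floor, a lowest level shared by many probes. As a ratio it differs between probes, since each is relative to its own control mean. For 48 members no pair of arrays shared that floor, so how far they stood above it could not be read. For the rest, each probe was first put on a scale relative to its floor. There any value under the highest of the 9 floors was set to that floor, and the probe was again taken relative to its control mean. A probe was tested if it stood above that floor on at least 3 arrays or had no known floor. This left 5710 probes. The share of all probes at the floor was 29.1% to 42.4% on overventilation arrays, 32.3% to 36.0% on LPS arrays and 27.8% to 39.4% on control arrays. After these steps the median over the 5710 probes lay between -0.12 and 0.09 on every array. Of 9 lung epithelium markers on the array 8 passed the filter and none was at the floor on all arrays.

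Promoter sequences are shown for 4 members that the results below turn on: Atp5l and Ndufc1, which were low on 2 of the 3 overventilation arrays, Sdhb, which had the highest mean change after overventilation, and Ndufa3, which was very low on 1 LPS array. They are RefSeq sequences of build GRCm38.p6, 250 bases before to 50 bases after the gene's start, 5′ to 3′ on the gene's strand. Atp5l lies on the minus strand at chr9:44920693-44920992, Ndufc1 on the minus strand at chr3:51408906-51409205, Sdhb on the plus strand at chr4:140961021-140961320 and Ndufa3 on the plus strand at chr7:3617123-3617422. Capitals mark matches on either strand to core motifs of factors known to act on such promoters: CGCATGCG for NRF1, CCGGAAG for GABPA and AAGATGGCG for YY1.
Atp5l: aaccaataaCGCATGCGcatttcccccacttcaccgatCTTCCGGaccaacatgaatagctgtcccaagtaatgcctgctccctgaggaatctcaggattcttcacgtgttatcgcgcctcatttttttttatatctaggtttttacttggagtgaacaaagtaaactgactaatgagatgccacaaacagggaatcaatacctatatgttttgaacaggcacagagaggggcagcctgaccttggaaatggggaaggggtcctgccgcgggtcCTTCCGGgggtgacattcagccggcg
Ndufc1: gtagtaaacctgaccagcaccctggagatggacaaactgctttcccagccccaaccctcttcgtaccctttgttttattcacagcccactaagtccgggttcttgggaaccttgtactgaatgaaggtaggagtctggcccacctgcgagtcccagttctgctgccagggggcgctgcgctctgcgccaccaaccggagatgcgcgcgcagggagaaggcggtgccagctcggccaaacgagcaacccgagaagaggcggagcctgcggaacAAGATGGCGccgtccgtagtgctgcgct
Sdhb: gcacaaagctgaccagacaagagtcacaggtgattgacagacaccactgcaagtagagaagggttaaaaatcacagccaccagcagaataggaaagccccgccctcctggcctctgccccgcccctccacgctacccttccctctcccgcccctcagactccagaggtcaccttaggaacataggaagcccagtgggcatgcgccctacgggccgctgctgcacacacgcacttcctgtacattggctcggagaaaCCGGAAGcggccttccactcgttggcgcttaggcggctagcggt
Ndufa3: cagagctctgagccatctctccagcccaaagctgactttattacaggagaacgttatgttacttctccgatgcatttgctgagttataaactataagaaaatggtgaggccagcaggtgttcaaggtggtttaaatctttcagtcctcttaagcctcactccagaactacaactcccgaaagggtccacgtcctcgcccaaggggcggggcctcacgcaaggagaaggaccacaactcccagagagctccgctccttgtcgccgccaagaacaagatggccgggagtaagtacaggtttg

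A promoter was found for 47 of the 55 members. The NRF1 core stood in 5 of these 47 (10.6%) and in 517 of 27025 promoters of the table (1.91%), the first listed start of each gene being used. The GABPA core stood in 8 members (17.0%) and in 9.12% of all promoters, and the YY1 core in 4 members (8.51%) and in 1.49% of all. Atp5l had 1 NRF1 match and 2 GABPA matches, Ndufc1 a YY1 match, Sdhb a GABPA match and Ndufa3 no match in this window. A match is a string of letters and does not show that a factor binds there.

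**Figure D1:**
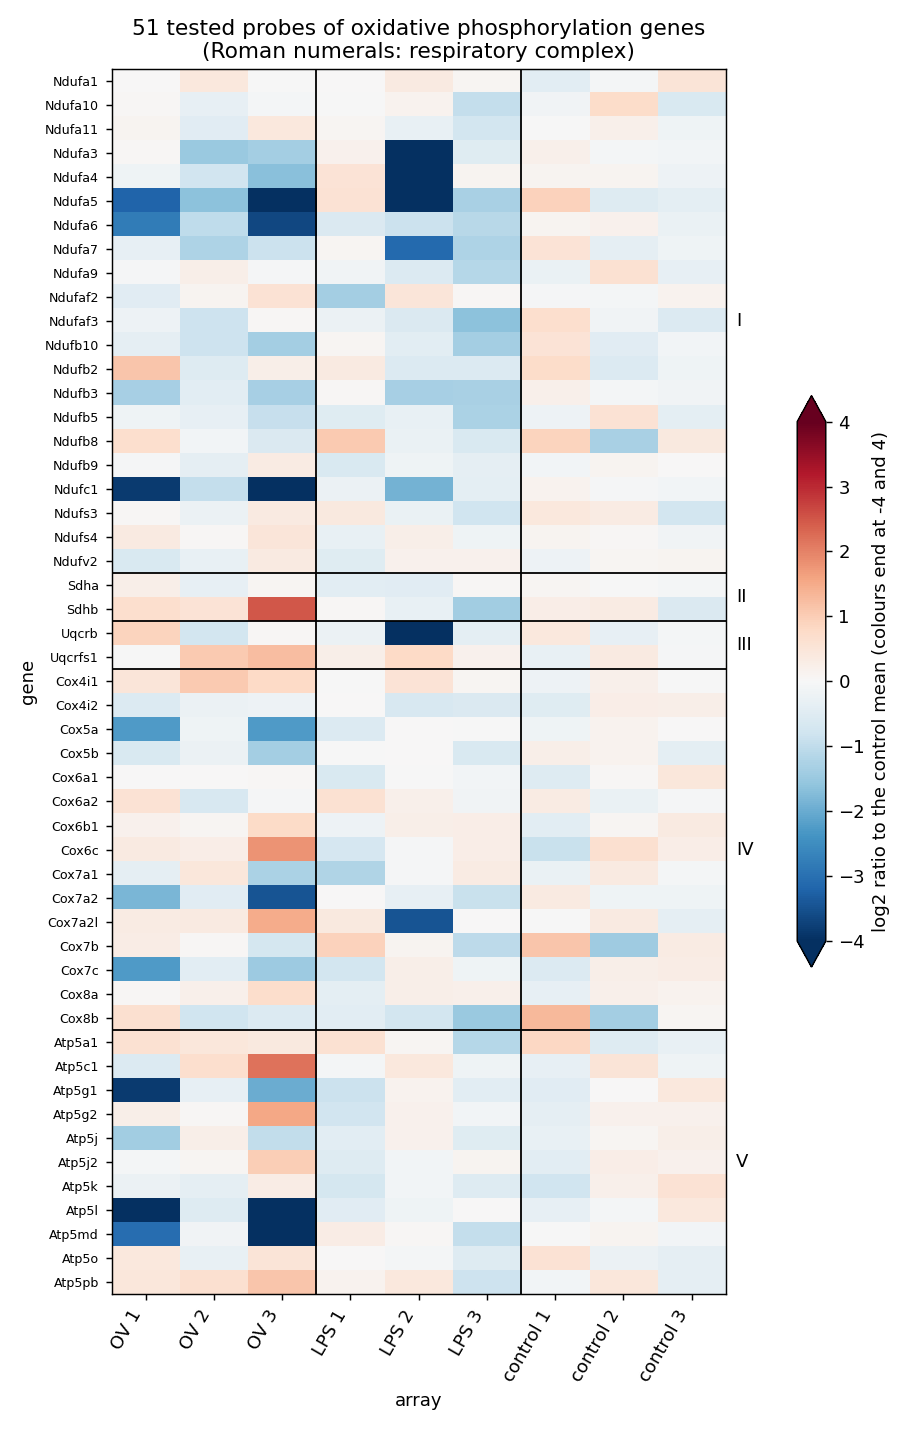
Heat map of the 51 tested members, ordered by respiratory complex I to V, on the 9 arrays (OV, overventilation). Colour gives the log2 ratio to the control mean. Deep blue cells stand mostly on OV arrays 1 and 3 and on LPS array 2, for example Atp5l at -4.77 and -4.94 on OV arrays 1 and 3 and Uqcrb at -7.22 on LPS array 2.

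Overventilation was set against control to ask what 3 h at high pressure does to these transcripts. A group of accessory subunit genes from complexes I, IV and V was far lower on overventilation arrays 1 and 3 than on any control or LPS array, and array 2 stood near the controls for most of them. No member passed the test over all probes (limma, adjusted p at least 0.193), as no probe did (0 of 5710, or 0%). At an unadjusted p under 0.05, 10 of 51 members (19.6%) were lower, against 8.69% of all probes, and 1 (1.96%) was higher, against 6.20% of all. The 3 overventilation samples lay below all controls in 8 members (15.7%), against 10.5% of all probes, and above all controls in 2 (3.92%), against 9.18%. The median log2 difference over the 51 members was -0.03, and -0.01 over all probes.

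Complex V gave the lowest member of all, although the median change over its 11 tested members was 0.22. Without overventilation replicate 3 that median was -0.01. Atp5l, which encodes subunit g of the membrane part of ATP synthase, lay at -4.77, -0.50 and -4.94 on overventilation arrays 1 to 3, against -0.34, -0.09 and 0.43 on control arrays 1 to 3. The groups did not overlap, but array 2 was only just below the lowest control. The log2 change was -3.41 with a standard error of 0.98 (limma adjusted p = 0.202). Atp5md, which encodes a small membrane subunit also called DAPIT, lay at -3.04, -0.14 and -4.04, against -0.02, 0.11 and -0.09 in controls. Its log2 change was -2.41 with a standard error of 0.83 (limma adjusted p = 0.230), and again array 2 sat next to the controls.

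Subunit c of the rotor ring has several genes that encode the same mature protein, and 2 of them, Atp5g1 and Atp5g2, were measured. Atp5g1 lay at -3.82, -0.34 and -1.99 on the overventilation arrays, against -0.45, 0.02 and 0.43 on the control arrays. Atp5g2 lay at 0.23, 0.04 and 1.55, against -0.35, 0.17 and 0.19. Both genes overlapped with the controls on array 2, and on arrays 1 and 3 they stood on opposite sides of them. The log2 changes were -2.05 for Atp5g1 (limma adjusted p = 0.240) and 0.61 for Atp5g2 (limma adjusted p = 0.580). The difference between them was not tested.

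Of the other complex V subunits, most had positive log2 changes, and Atp5j and Atp5k did not. The catalytic part was represented by Atp5a1 (alpha) with a log2 change of 0.48 and Atp5c1 (gamma) with 0.77, which stood at -0.53, 0.67 and 2.17 on overventilation arrays 1 to 3. Atp5b, the beta subunit gene, was at the floor on 7 arrays and was not tested. Its log2 ratio on overventilation array 3 was 2.88 as deposited, before values were set to the common floor, and the floor of that array was 1.15. On overventilation array 2 Atp5b stood close to the floor. The stalk genes Atp5pb (subunit b) and Atp5o (OSCP) had changes of 0.74 and 0.22. Atp5j, which encodes coupling factor 6, lay at -1.39, 0.24 and -0.97, against -0.31, 0.07 and 0.24 in controls, so it was low on arrays 1 and 3 as well (log2 change -0.71). Atp5j2 and Atp5k, subunits f and e of the membrane part, had changes of 0.32 and -0.09.

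In complex I the lowest members were accessory subunits. Ndufa5, an accessory subunit of the matrix arm, lay at -3.19, -1.63 and -4.52 on the overventilation arrays, against 0.92, -0.53 and -0.39 on the control arrays. All 3 overventilation arrays were below every control, and the log2 change was -3.11 with a standard error of 1.21 (limma adjusted p = 0.273). Ndufc1, a small subunit of the membrane arm, lay at -3.82, -0.94 and -4.19, against 0.15, -0.04 and -0.11 in controls (log2 change -2.98, standard error 0.79, limma adjusted p = 0.193). Ndufa6, which binds the mitochondrial acyl carrier protein, lay at -2.78, -1.003 and -3.63, against 0.12, 0.16 and -0.28 in controls (log2 change -2.47, standard error 0.57, limma adjusted p = 0.193). In these 3 genes array 2 was low too, though less so than arrays 1 and 3.

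Ndufb3, another membrane arm subunit, was at the common floor on overventilation arrays 1 and 3, at -1.32, and lay at -0.42 on array 2, against 0.20, -0.07 and -0.13 in controls. With 2 of 3 values at the floor, its log2 change of -1.02 may understate the difference (limma adjusted p = 0.306). In the remaining complex I members the overventilation and control arrays overlapped. The core subunits, which carry the electron path, were represented by Ndufs3 (log2 change 0.06) and Ndufv2 (-0.18), and the accessory subunit gene Ndufs4 had a change of 0.30. Ndufab1, the acyl carrier protein, stood at the floor on all 9 arrays and the assembly factor gene Ndufaf7 on 8, so neither was tested. Over the 21 tested complex I members the median change was -0.18. On the lower side were 14 of them (66.7%), against 56.9% of the 51 tested members and 50.6% of all probes.

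Complex IV held both directions. Cox4i1, the common form of subunit 4, lay at 0.48, 1.04 and 0.81 on the overventilation arrays, against -0.19, 0.21 and -0.02 on the control arrays. All 3 overventilation samples were above all controls, a log2 change of 0.78 (standard error 0.31, limma adjusted p = 0.277). Its paralog Cox4i2, a form known for its expression in lung, lay at -0.54, -0.24 and -0.21, against -0.48, 0.26 and 0.22, and overlapped with the controls. Cox5a, a nuclear subunit on the matrix side, was at the common floor on overventilation arrays 1 and 3, at -2.26, and lay at -0.19 on array 2, against -0.18, 0.15 and 0.02 in controls. Its log2 change of -1.57 (limma adjusted p = 0.226) may understate the difference in the same way as that of Ndufb3. Cox5b, the zinc-binding subunit, lay at -0.61, -0.23 and -1.36, against 0.24, 0.15 and -0.39.

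Among the small membrane subunits of complex IV, Cox7a2 lay at -1.83, -0.44 and -3.46 on the overventilation arrays, against 0.36, -0.18 and -0.18 on the control arrays (log2 change -1.91, standard error 0.65, limma adjusted p = 0.228). Cox7c lay at -2.26, -0.42 and -1.46, against -0.55, 0.24 and 0.31 (log2 change -1.38, limma adjusted p = 0.241), with array 2 inside the range of the controls. Cox6c lay at 0.36, 0.26 and 1.79, against -0.90, 0.63 and 0.27. So Cox7a2 and Cox7c were low on arrays 1 and 3, while Cox6c was high on array 3. Of the forms known from heart and skeletal muscle, Cox7a1 lay at -0.37, 0.45 and -1.28 on the overventilation arrays, against -0.26, 0.35 and -0.09 on the control arrays, so arrays 1 and 3 were below every control and array 2 above. The log2 changes were -0.40 for Cox7a1, -0.03 for Cox6a2 and -0.24 for Cox8b, and those of the common forms Cox6a1 and Cox8a were 0.03 and 0.32. Over the 15 members of complex IV the median change was -0.11.

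Complexes II and III had few members. Sdhb, the iron-sulfur subunit of succinate dehydrogenase, lay at 0.68, 0.54 and 2.47 on the overventilation arrays, against 0.27, 0.32 and -0.59 on the control arrays. All 3 overventilation samples were above the controls, with a log2 change of 1.23 (standard error 0.58, limma adjusted p = 0.366) that was 0.61 without overventilation replicate 3. High values on overventilation array 3 were common: 16.8% of all probes stood above 1 there, against 6.94% on array 1 and 7.58% on array 2. Of the members 13.7% did so on array 3, with Sdhb, Atp5c1, Cox6c and Atp5g2 among them. Array 3 also had 17.1% of all probes below -1. Sdha, the flavoprotein, lay at 0.24, -0.33 and 0.07, against 0.09, -0.01 and -0.08. Sdhc, a membrane anchor, was at the floor on 5 arrays and was not tested. Its log2 ratio on overventilation array 3 was 3.77 as deposited, before values were set to the common floor. This array had the highest floor of all, at 1.15. Uqcrfs1, the Rieske iron-sulfur protein of complex III, lay at -0.01, 1.06 and 1.25, against -0.30, 0.36 and -0.06 (log2 change 0.76, limma adjusted p = 0.413).

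**Figure D2:**
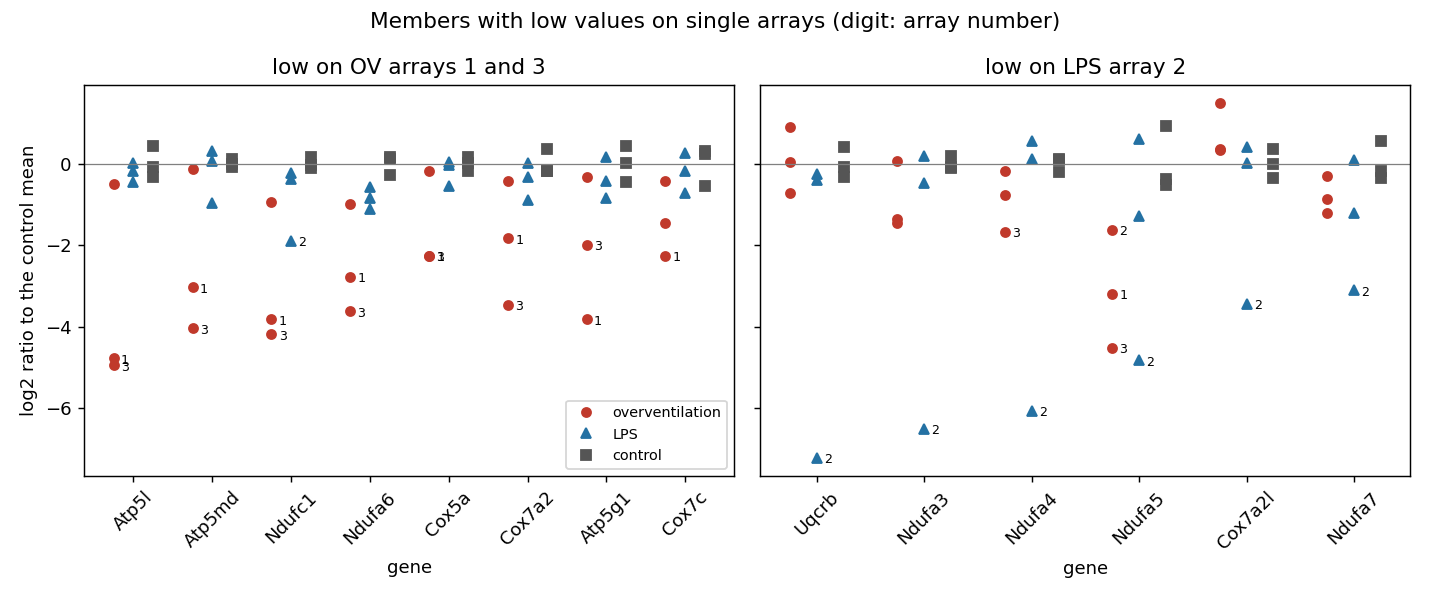
Log2 ratio to the control mean (vertical axis) of members with low values on single arrays, with red circles for overventilation, blue triangles for LPS and grey squares for control. The digits give the array number of the lower values. In the left panel the lowest value of each gene is on overventilation array 1 or 3 (Ndufc1 is also at -1.90 on LPS array 2), and in the right panel LPS array 2 stands lowest, at -7.22 for Uqcrb and -6.50 for Ndufa3.

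Arrays 1 and 3 of the overventilation group shared these low values with other genes. Taking probes on which both arrays were more than 1.5 below all 7 others, 5 of 51 members (Atp5l, Atp5md, Ndufc1, Ndufa6 and Cox5a, 9.80%) were among 139 of 5710 probes (2.43%). The gap was 4.27 for Atp5l and between 1.66 and 2.07 for the other 4 members. The nearest members outside the limit were Atp5g1 with a gap of 1.14 and Cox7a2 with 0.93. Atp5g1 was also 1 of 22 probes (0.385% of those tested) with a lone low value on overventilation array 1, and Cox7a2 1 of 41 (0.718%) with one on array 3. Lone high values, more than 1.5 above every other array, were found on array 3 in 110 of 5710 probes, Sdhb being the 1 member. Overventilation arrays 1 and 2 had 0 such probes. Whether the difference between array 2 and arrays 1 and 3 came from the animals, the RNA or the arrays was not tested.

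Leaving out overventilation replicate 2 changed the calls. With arrays 1 and 3 alone, 290 of 5710 probes (5.08%) passed, and so did 7 of 51 members, which fell: Atp5l (log2 change -4.86, limma adjusted p = 0.0013), Ndufa6 (-3.20, adjusted p = 0.00267), Ndufc1 (-4.005, adjusted p = 0.00308), Atp5md (-3.54, adjusted p = 0.00389), Cox5a (-2.26, adjusted p = 0.00624), Cox7a2 (-2.64, adjusted p = 0.0225) and Atp5g1 (-2.91, adjusted p = 0.0226). Since 2 arrays then stand for the group, these values describe arrays 1 and 3. Atp5l, Ndufa6, Ndufc1, Atp5md and Cox5a were picked above by their low values on these same arrays, so their calls are no independent support. Without replicate 1 or without replicate 3 no member was called. The log2 change of Atp5g1 was -1.16 without replicate 1, and without replicate 3 those of Cox7a2 and Atp5md were -1.13 and -1.59.

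**Figure D3:**
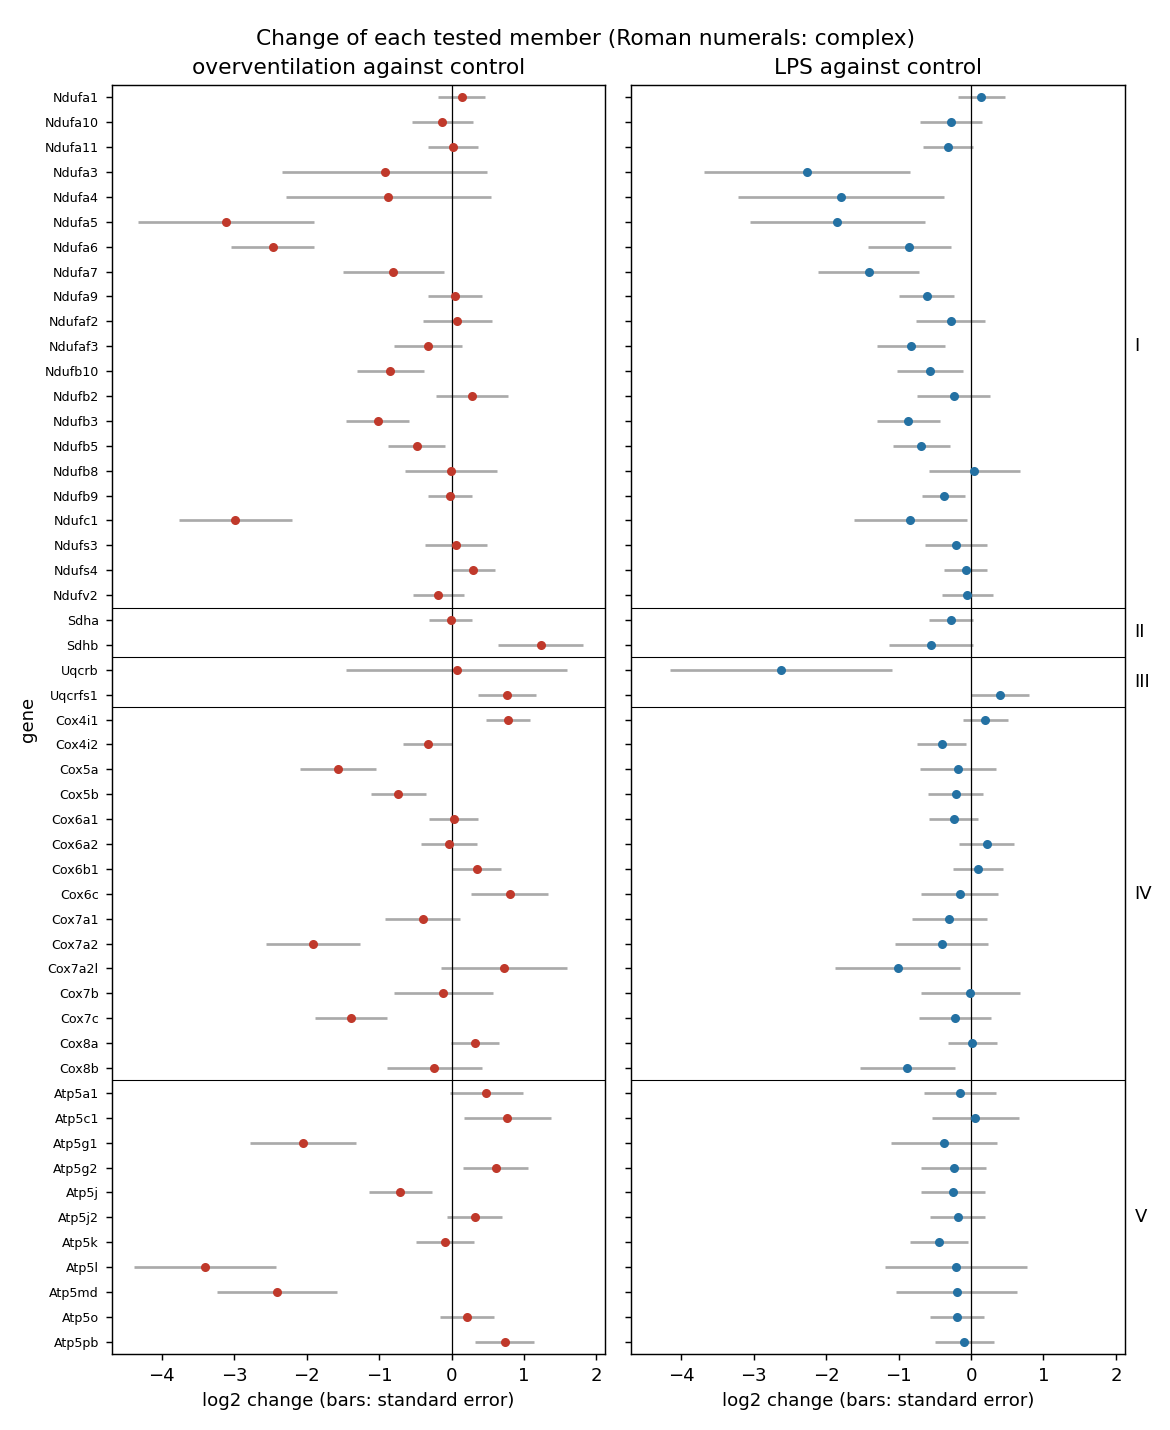
Log2 change of each tested member (points) with its standard error (bars), for overventilation against control on the left and LPS against control on the right. After overventilation 10 members of complexes I, IV and V lie below -1 and Sdhb is highest at 1.23, and after LPS most members lie between -1 and 0. Both panels share the control arrays.

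LPS was set against control to ask about a lung exposed to endotoxin. The labels name no ventilation for these groups and do not state that there was none. Means of the members were mostly on the lower side, and of complexes I, IV and V the median was lowest in complex I. No member passed the test over all probes (limma, adjusted p = 1 for each), as no probe did (0 of 5710, or 0%). At an unadjusted p under 0.05 no member was lower or higher, against 1.07% and 0.998% of all probes. With the replicate number as a block, 2 members were lower at that level, and 314 of 5710 probes passed it in either direction, against 118 without the block. With array weights 5 members were lower at that level, and 420 of 5710 probes passed it in either direction. The samples lay below all controls in 3 members (5.88%: Ndufa6, Ndufc1 and Ndufb9), against 4.08% of all probes, and above them in none, against 2.24% of all.

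By complex, 19 of 21 members of complex I, 11 of 15 of complex IV and 10 of 11 of complex V had a lower mean after LPS. In all, 43 of 51 members (84.3%) were on the lower side, against 55.3% of all probes. The median log2 changes were -0.57 in complex I, -0.21 in complex IV and -0.20 in complex V, and -0.05 over all probes. Leaving out control replicate 1 put the complex V median at -0.38, and leaving out LPS replicate 3 put it at -0.13. Without LPS replicate 2 the medians were -0.33 in complex V and -0.35 in complex I. Without LPS replicate 1 the number on the lower side was 37 of 51, and without LPS replicate 3 it was 38. Without LPS replicate 1 the complex IV median was -0.00080, so that value rests on array 1, and it was -0.13 when control replicate 2 was left out and -0.07 when control replicate 3 was.

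On single arrays the complex I median was 0.01, -0.42 and -0.72 on LPS arrays 1 to 3, against 0.12, -0.04 and -0.17 on control arrays 1 to 3. LPS array 1 was thus inside the range of the controls and arrays 2 and 3 below it. The complex V median was -0.42, 0.07 and -0.49 on the LPS arrays, against -0.32, 0.11 and 0.17 on the control arrays. Here arrays 1 and 3 were low and array 2 was not, and control array 1 was low as well. The complex IV median was -0.21, 0.02 and -0.10 on the LPS arrays, against -0.19, 0.15 and 0.06 on the control arrays. Array 1 was just below the lowest control and the others were within the controls' range.

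**Figure D4:**
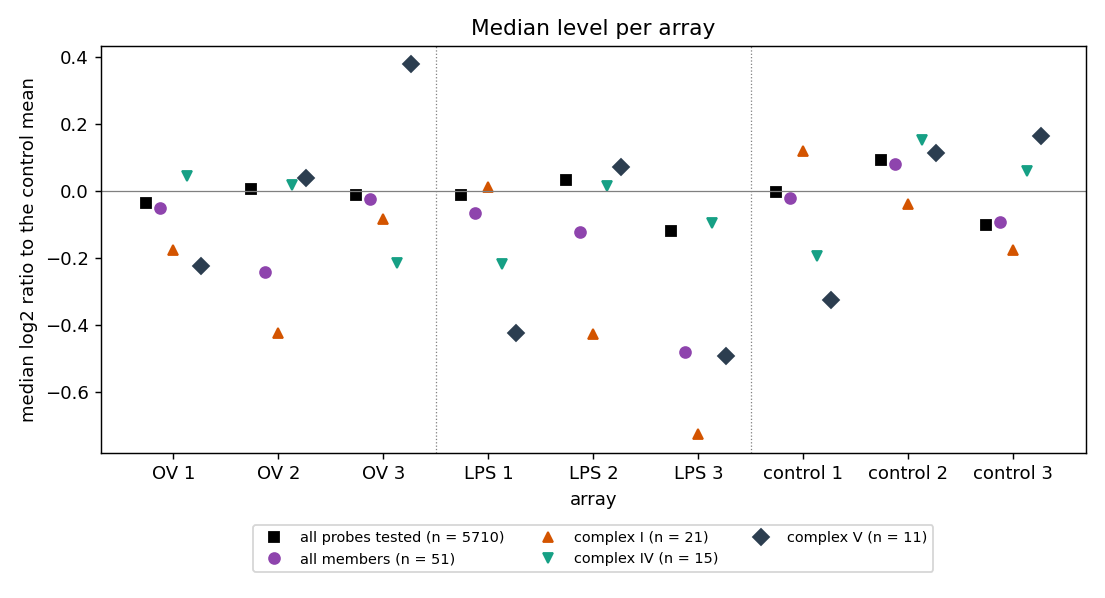
Median log2 ratio to the control mean per array over all 5710 probes tested, the 51 members and complexes I, IV and V (OV, overventilation). The complex I median is lowest on LPS array 3, at -0.72, where the median of all probes is -0.12.

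On LPS array 3 the low members were many and moderate. There 12 of 51 members (23.5%) were below -1, against 7.48% of all probes, and 8 of them belong to complex I. Ndufaf3, an assembly factor, stood at -1.64 and the membrane arm subunit Ndufb10 at -1.37 on this array, against -0.24 and 0.09 on LPS array 1. Atp5a1 stood at -1.14 and Sdhb at -1.40 on LPS array 3, lower than on any other array. Control values of Atp5a1 were 0.83, -0.52 and -0.31, and those of Sdhb 0.27, 0.32 and -0.59.

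On LPS array 2 the low members were few and extreme. Uqcrb, a complex III subunit near the ubiquinone site, lay at -0.25, -7.22 and -0.40 on LPS arrays 1 to 3, against 0.41, -0.34 and -0.08 on the control arrays. Ndufa3, a small membrane arm subunit of complex I, lay at 0.18, -6.50 and -0.48, against 0.19, -0.09 and -0.10. Ndufa4, first assigned to complex I and later found in complex IV, lay at 0.56, -6.07 and 0.11, against 0.12, 0.09 and -0.22. In these 3 genes the other LPS arrays stood between -0.48 and 0.56.

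The same array was lowest for Cox7a2l, a factor in joining complexes III and IV, with 0.40, -3.44 and 0.00 on the LPS arrays, against -0.02, 0.36 and -0.35 on the control arrays. For the complex I subunit Ndufa7 the values were 0.09, -3.11 and -1.22, against 0.55, -0.36 and -0.18, so array 3 was low as well. Ndufa5 stood at 0.59, -4.83 and -1.29, but was nearly as low on overventilation array 3. Lone low values on LPS array 2, more than 1.5 below all 8 other arrays, were found in 5 of 51 members (9.80%) and in 291 of 5710 probes (5.10%). The gaps of these 5 were 1.89 to 6.49, and that of the next member, Ndufa5, was 0.31.

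These lone values set the group means. Without LPS replicate 2 the log2 change of Uqcrb was -0.33 in place of -2.62, and that of Ndufa3 was -0.15 in place of -2.26. For Ndufa4 it was 0.33 in place of -1.80 and for Cox7a2l 0.20 in place of -1.01, so the direction turned in both. When lone low values were made missing and probes low on overventilation arrays 1 and 3 were left out, the complex I median after LPS was -0.28. The median over all members was -0.24 under that setting and -0.32 without LPS replicate 2.

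Of the 3 members below all controls, Ndufa6 had the lowest mean after LPS. It lay at -0.59, -0.86 and -1.12 after LPS, against 0.12, 0.16 and -0.28 on the control arrays (log2 change -0.85, standard error 0.57). Ndufc1 lay at -0.22, -1.90 and -0.38, against 0.15, -0.04 and -0.11 (log2 change -0.84, standard error 0.79), and without LPS replicate 2 its change was -0.30. Ndufb9, a membrane arm subunit, lay at -0.61, -0.18 and -0.35, against -0.12, 0.11 and 0.01 (log2 change -0.38, standard error 0.30). Ndufa6 and Ndufc1 were also below the controls after overventilation, a comparison that shares the same controls.

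**Figure D5:**
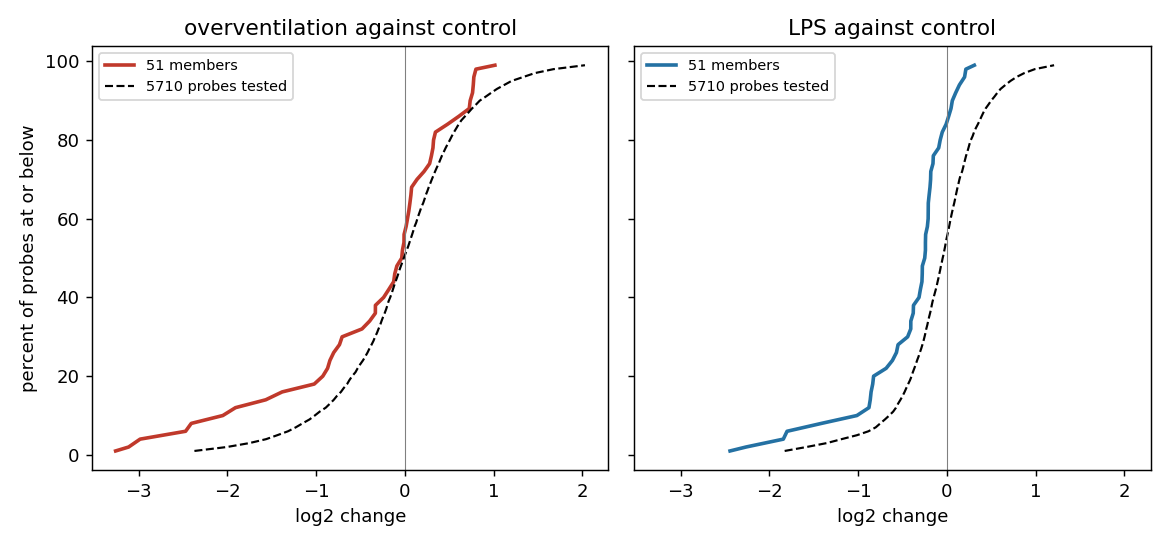
Cumulative distribution of log2 changes over the 51 members (coloured line) and over the 5710 probes tested (dashed line), with the percent of probes on the vertical axis. After overventilation the medians are -0.03 and -0.01, and the members' line lies left of the other at its low end. After LPS the members' median is -0.25 and that of all probes -0.05.

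Set directly against LPS, overventilation gave no member past the test (limma, adjusted p at least 0.494), and no probe passed (0 of 5710, or 0%). At an unadjusted p under 0.05, 8 members (15.7%) were lower after overventilation, against 5.94% of all probes, and 1 (1.96%), Sdhb, was higher, against 3.57% of all. The groups did not overlap in 5 members that were higher after overventilation (Atp5pb, Cox6a1, Cox6c, Ndufa9 and Sdhb, 9.80%), against 5.73% of all probes, and in 1 that was lower (Atp5l, 1.96%), against 5.46%. Sdhb lay at 0.68, 0.54 and 2.47 on the overventilation arrays, against 0.04, -0.29 and -1.40 on the LPS arrays, a log2 difference of 1.78 with a standard error of 0.58. The 8 lower members were Atp5l (log2 difference -3.20), Atp5md (-2.21), Ndufc1 (-2.15), Atp5g1 (-1.67), Ndufa6 (-1.62), Cox7a2 (-1.50), Cox5a (-1.38) and Cox7c (-1.16). Leaving out overventilation replicate 2 here gave 226 of 5710 probes (3.96%) past the test. Among them were 6 of 51 members, all lower: Atp5l, Atp5md, Ndufc1, Atp5g1, Ndufa6 and Cox5a. These calls describe overventilation arrays 1 and 3, by whose low values all of them but Atp5g1 were picked above. The median difference over the members was 0.27, against 0.07 over all probes, and without overventilation replicate 3 it was 0.15. Without that replicate the difference of Sdhb was 1.16.

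Within the control group the members were not uniform. The median SD over the 3 controls was 0.39 for the members and 0.38 for all probes, and in the overventilation group it was 0.57 and 0.49. Cox8b lay at 1.29, -1.35 and 0.06 on control arrays 1 to 3, Cox7b at 1.10, -1.43 and 0.33 and Ndufb8 at 0.90, -1.28 and 0.38. In these genes control arrays 1 and 2 differed by more than 2 on the log2 scale. Cox7b and Ndufb8 were also high on LPS array 1, at 0.93 and 1.04.

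Other genes of the pathway and of mitochondria were read from fixed lists. Of 12 tested proteins that serve the respiratory chain without falling under the rule, 2 were lower and 1 higher after overventilation at an unadjusted p under 0.05. The shares of all probes were 8.69% and 6.20%. After LPS none was lower or higher, against 1.07% and 0.998% of all probes. The lower ones were Atpif1, the inhibitor of ATP synthase, with -2.85, 0.09 and -3.62 on the overventilation arrays, and Etfb, an electron transfer flavoprotein, with -3.54, -0.35 and -3.59. Both thus had the array pattern of Atp5l. The higher one was the ADP/ATP carrier gene Slc25a5, with 2.89, 2.50 and 5.04, against 1.35, -0.81 and -0.54 in controls. On the LPS arrays Slc25a5 stood at 2.57, 1.99 and 0.51, a log2 change of 1.69. Cyc1, cytochrome c1 of complex III, stood at -4.65 on LPS array 2, and between -0.48 and 0.06 on the other LPS arrays.

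Neighbouring pathways were read in the same way, beside medians of -0.01 after overventilation and -0.05 after LPS over all probes. For 10 genes of the TCA cycle and pyruvate metabolism (Pdha1, Pdhb and Pcx among them) the median change was -0.31 after overventilation and -0.14 after LPS. Fatty acid oxidation genes had -0.28 and -0.22 over 8 genes, mitochondrial import genes -0.15 and -0.01 over 18, and regulators of mitochondrial biogenesis 0.12 and -0.06 over 6. Glycolysis genes had 0.41 over 10 genes after overventilation and 0.12 after LPS. After overventilation 3 of them were higher and 1 lower at an unadjusted p under 0.05, against 6.20% and 8.69% of all probes. The hexokinase gene Hk2 had log2 ratios of 2.17, 1.44 and 1.35 after overventilation and of 0.99, 1.84 and 1.15 after LPS, against 0.07, 0.64 and -0.71 in controls. The lower glycolysis gene, the glucose transporter gene Slc2a1, stood at -3.29, 0.24 and -3.32 on the overventilation arrays, again low on arrays 1 and 3.

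Markers of other tissues were measured beside these values. The 8 tested striated muscle markers had a median change of 0.33 after overventilation and 0.01 after LPS, and Myh6, Myh7 and Ckm were at the floor on all arrays. The 4 tested adipose markers had array medians of -0.67, -2.17 and -1.17 after overventilation and -1.92, -3.75 and -1.54 after LPS, against 0.86, 0.92 and -1.68 in controls, so control array 3 stood with the treated samples. At an unadjusted p under 0.05, 2 of these 4 were lower after overventilation, against 8.69% of all probes, and all 4 after LPS, against 1.07%. Adipoq and Fabp4 had lone low values on LPS array 2, at -5.28 and -6.07. Retn was at the common floor, -2.21, on every overventilation array and on LPS array 2. Ucp1 was at it, at -1.14, on overventilation arrays 2 and 3, every LPS array and control array 3. Lung epithelium markers had medians of 0.21, -0.25 and 1.36 on the overventilation arrays and of 0.33, 0.19 and 0.07 on the LPS arrays, against -0.02, 0.15 and -0.19. Neutrophil markers had a median change of -0.76 over 4 genes after overventilation and -0.50 after LPS. The part of these cell types in the members' values was not tested.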

How the data were processed

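The deposited values are ratios on a linear scale. How the authors made them (array maker, dyes, scanner, scaling between arrays) is not given in the sources used here. In the deposited table the log2 mean of the 3 controls was 0 for every probe (largest deviation 2.5e-09), so each ratio is relative to the geometric mean of the controls. A floor pattern was shared by 2 or more arrays in 4690 probes (tolerance 1e-06), 1908 of them at it on all arrays.

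Symbols came from the platform's annotation (8983 probes with 1 symbol, 1 with several, 1028 with none), and all 55 member gene IDs were found in the reference gene table. Probes with a known floor were shifted to levels relative to it, and lower values were set to the common floor (a ratio of 2.22, log2 1.15). These probes were then centred again on the control mean. Group means were tested over 5710 probes in R 4.3.3 by limma (version 3.58.1, lmFit and eBayes, two-sided, all 9 arrays), with p-values adjusted by the Benjamini-Hochberg method at 0.05. The fit was tested on simulated data.

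Named members are those without overlap and with the largest changes, core subunits, paralogs of tissue forms and members with low values on single arrays. Members and lists were chosen with earlier results of these data known. Same-numbered arrays of LPS and control deviated together (correlations 0.50, 0.25 and 0.20), so on the data alone the numbers were taken to pair them. For overventilation and control the correlations were 0.51, 0.13 and 0.03, which did not meet that rule. The main fit did not use this pairing. The standard errors, p-values and counts for LPS against control are unpaired, except where the replicate block is named. Alternatives covered the floor, filter, scaling, low spots, array weights, replicate block and leaving out each array. The number of arrays limits the precision.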

Additional observations from a re-analysis of the deposited data

How the results depend on the processing

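Of the 10 settings other than leaving out an array, 1 moved a count of adjusted calls, or a median beyond the spread between arrays. With low spots set to missing, 1 probe was called for overventilation against control and the complex I median after LPS was -0.28. Under it the directions of Ndufa4 (0.33) and Cox7a2l (0.20) after LPS turned, as they did without LPS replicate 2, where only that array was low; without LPS replicate 1 they were -2.98 and -1.72. Over the arrays left out in turn, calls for overventilation against control were between 0 and 290 probes and between 0 and 7 members, and for overventilation against LPS between 0 and 226 probes and between 0 and 6 members. The high counts came without overventilation replicate 2, and 1 probe was called without control replicate 3, as for LPS against control (0 to 1). The member median of overventilation against control was between -0.21 (without overventilation replicate 1) and 0.035, that of complex I between -0.43 and -0.080, and that of complex IV between -0.32 and 0.13. The complex IV median was between -0.28 and -0.00080 for LPS against control, and between 0.034 and 0.22 for overventilation against LPS. The replicate block left the medians at -0.03 and -0.25 and called 0 probes after adjustment, so it changed no adjusted call. At an unadjusted p under 0.05 it gave 1200 probes for overventilation against control, against 850 without it, and 314 for LPS against control, against 118. Other settings moved these unadjusted counts too. Quantile normalization gave 401 probes for overventilation against control, and array weights gave 420 for LPS against control. Over all alternatives the sign turned at least once in 20 of 51 members for overventilation against control (changes of at most 0.40 in size). It turned in 23 for LPS against control (at most 1.80, Ndufa4) and in 16 for overventilation against LPS (at most 1.34, Ndufa3). Low values near the floor have no measured depth, and no second probe of a member was on the array.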
